A study of Mus musculus with 16 samples.

Results

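The genes described here are 35 mouse genes that p53 is known to switch on outside the Bcl2 family and the CDK inhibitors. They act in cell cycle control (8 genes), cell death (12), DNA repair (5) and metabolism or other processes (10). They were chosen by symbol, with no threshold on a measured value but with earlier results of these data known. Each symbol matched 1 of the 41214 Ensembl identifiers counted in every library. All 35 passed the filter on low counts, which kept 17470 genes for testing.

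p53 is a transcription factor that is held low in unstressed cells by the ubiquitin ligase Mdm2 and accumulates after DNA damage or oncogene activation. It then binds paired decamer motifs in DNA and activates genes that arrest the cell cycle, repair DNA, adjust metabolism or trigger apoptosis through death receptors and mitochondria. In thymocytes p53 drives apoptosis after DNA damage, and mice without p53 are known to develop thymic lymphoma.

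RNA was sequenced from T cell acute lymphoblastic leukaemia (T-ALL) of 16 C57Bl6 mice, 2 mice in each of 8 groups. The 6 ICN p53-ko mice had leukaemia induced by ICN, an activated form of Notch, and lacked p53: 2 carried wild-type Miz1, 2 carried Miz1 deltaPOZ with the title suffix Lck, and 2 carried Miz1 deltaPOZ with the suffix Vav. The 4 p53-ko mice without ICN, in which the labels name no other inducer, carried Miz1 deltaPOZ with the suffix Vav (2 mice) or wild-type Miz1 (2 mice). The 6 ICN p53-wt mice repeated the first set with p53 present: 2 Miz1 wt, 2 deltaPOZ Lck and 2 deltaPOZ Vav. Miz1 (gene Zbtb17) is a DNA-binding transcription factor with zinc fingers, and it oligomerises through its POZ domain. Lck and Vav are genes whose promoters often drive Cre in T cells and in blood cells, but the labels do not explain the suffixes, and the labels give no age, sex, organ or batch. No group with p53 wt and without ICN was analysed here, and mice are numbered 1 and 2 within a group in an order that carries no meaning.

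Promoters are shown for Shisa5, Ccng1 and Ephx1, which had lower mean levels in ICN leukaemias without p53, so that the decamer bound by p53 can be looked for in them. The bases are the 250 before an annotated start, from RefSeq on GRCm38.p6, written 5′ to 3′ on the gene's strand. Capitals mark a match to the p53 decamer consensus, which is its own reverse complement, so that a match on either strand is a match on both. The Shisa5 windows shown, chosen because they hold a decamer, are chr9:109052604-109052853 and chr9:109054616-109054865 on the plus strand, both at starts inside the gene, with a decamer that begins 136 and 190 bases before the start. The windows at the other Shisa5 starts, not shown, hold no decamer. Among them is the window at the 5′ end of the gene, chr9:109038317-109038616 with the bases after the start included. The Ccng1 window is chr11:40755287-40755536 on the minus strand, with a decamer that begins 185 bases before the start. The Ephx1 window, chr1:181017570-181017819 on the minus strand, holds none. Its start lies inside the gene, whose annotated 5′ end is at 181020904, and the bases before that end were not searched.
Shisa5, first window: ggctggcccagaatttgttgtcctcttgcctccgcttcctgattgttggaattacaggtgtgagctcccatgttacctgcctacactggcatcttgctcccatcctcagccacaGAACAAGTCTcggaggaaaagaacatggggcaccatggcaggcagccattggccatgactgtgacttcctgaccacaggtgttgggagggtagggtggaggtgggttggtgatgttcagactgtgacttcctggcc
Shisa5, second window: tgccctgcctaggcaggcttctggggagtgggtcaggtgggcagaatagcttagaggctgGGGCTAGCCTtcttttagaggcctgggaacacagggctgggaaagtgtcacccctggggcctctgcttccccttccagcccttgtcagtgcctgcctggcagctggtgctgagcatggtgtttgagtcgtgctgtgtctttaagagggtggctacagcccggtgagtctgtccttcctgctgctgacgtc
Ccng1: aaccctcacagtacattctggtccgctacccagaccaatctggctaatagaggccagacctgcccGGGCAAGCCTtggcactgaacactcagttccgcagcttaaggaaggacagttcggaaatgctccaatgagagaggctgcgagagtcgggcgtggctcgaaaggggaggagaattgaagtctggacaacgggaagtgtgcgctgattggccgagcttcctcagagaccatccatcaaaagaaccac
Ephx1: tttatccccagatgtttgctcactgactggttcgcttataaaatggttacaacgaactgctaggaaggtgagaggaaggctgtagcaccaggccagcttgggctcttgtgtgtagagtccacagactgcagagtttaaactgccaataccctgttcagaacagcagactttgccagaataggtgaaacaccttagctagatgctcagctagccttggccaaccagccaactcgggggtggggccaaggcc

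Windows that also take in the 50 bases after the start were found for 25 of the 35 genes, 37 windows in all. A decamer lay in 11 of the 37 windows (29.7%) and in at least 1 window of 9 of the 25 genes, which were Aen, Ckap2, Ei24, Shisa5, Sesn1, Ccng1, Polk, Abhd4 and Gtse1. Over all genes it lay in 2745 of 32851 windows (8.36%) and in at least 1 window of 2582 of 27025 genes (9.55%). A pair of decamers with a spacer of up to 13 bases lay in 0 of the 37 windows, and in 24 of all windows. A match is a description of these letters and not a measured binding site.

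The libraries held 36463524 to 68523196 counts in genes, with 2 mice per group that the labels name as separate animals. Trp53, which encodes p53, had 14.0 to 30.6 CPM (TMM-normalised counts per 1e6 counts) in the 6 ICN p53-ko mice, 7.32 to 21.8 CPM in the 4 p53-ko mice without ICN and 70.2 to 113.5 CPM in the 6 ICN p53-wt mice. It fell in ICN p53-ko mice (log2 fold change -2.06, SE 0.24, edgeR adjusted p = 0.0090), and the genotypes did not overlap. Which part of the gene the remaining reads cover was not examined. All 12 T cell markers had counts in every library. One library stood apart from the rest, that of ICN Miz1 wt p53-ko mouse 1. Of the total in its count file, summary rows included, 63.7% stood under no unique position (the next highest share was 56.2%). Genes held 20.6% of that total, the lowest share, and the library held the fewest gene counts of the 16. A read with several positions can be counted more than once, so these are not shares of reads. Marker levels of several other blood cells differed between the libraries. In bulk tissue, fewer cells of a type and less RNA per cell cannot be told apart.

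Transcript levels of the 35 genes spanned a wide range. Per kilobase of exon, the mean over 16 libraries ran from 0.0456 CPM for Trp53cor1, a long noncoding RNA also called lincRNA-p21, to 155 CPM for Trp53inp1, a nuclear body protein that promotes autophagy and apoptosis. Btg2, an antiproliferative partner of the mRNA deadenylase complex, followed at 99.0 CPM per kilobase, Shisa5 at 84.8, Tap2 at 45.7 and Ccng1 at 29.8. Between the extremes of the 16 libraries, the CPM of Polk, which copies past damaged bases, varied 1.78-fold, while that of Zmat3 varied 75.3-fold and that of Perp 36.1-fold.

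The first comparison asks how these p53 targets stood in ICN leukaemias that lacked p53. Of the 35 genes, 1 fell and 0 rose in the 6 p53-ko mice against the 6 p53-wt mice (edgeR quasi-likelihood test, adjusted p under 0.05 over all genes). Of all genes tested, 0.0744% fell and 0.12% rose, 0.195% in either direction. The log2 fold changes of the 35 genes, p53 ko over p53 wt, had a median of 0.01, against 0.00 over all genes, with 18 above 0 and 17 below 0. Without adjustment, p was under 0.05 for 9 genes (25.7%), against 15.5% of all genes. In p53-ko mice 3 of the 35 (8.57%) had a higher mean at that threshold (Plk2, Fas, Perp). A lower mean was seen in 6 (17.1%; Shisa5, Ephx1, Zmat3, Ccng1, Trp53cor1, Xpc). Of all 17470 genes tested, 1511 were higher and 1194 lower at the same threshold. In 3 of the 35 genes (Shisa5, Zmat3, Xpc; 8.57%), every p53-ko library lay below every p53-wt library, against 1.63% of all genes. The reverse held for 0 of the 35, against 0.973% of all genes. DESeq2 called 5 of the 35 (Plk2 and Fas higher; Shisa5, Zmat3 and Ephx1 lower), against 6.73% of the genes it tested. Without ICN Miz1 wt p53-ko mouse 1, 0 of the 35 passed by edgeR.

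**Figure D1:**
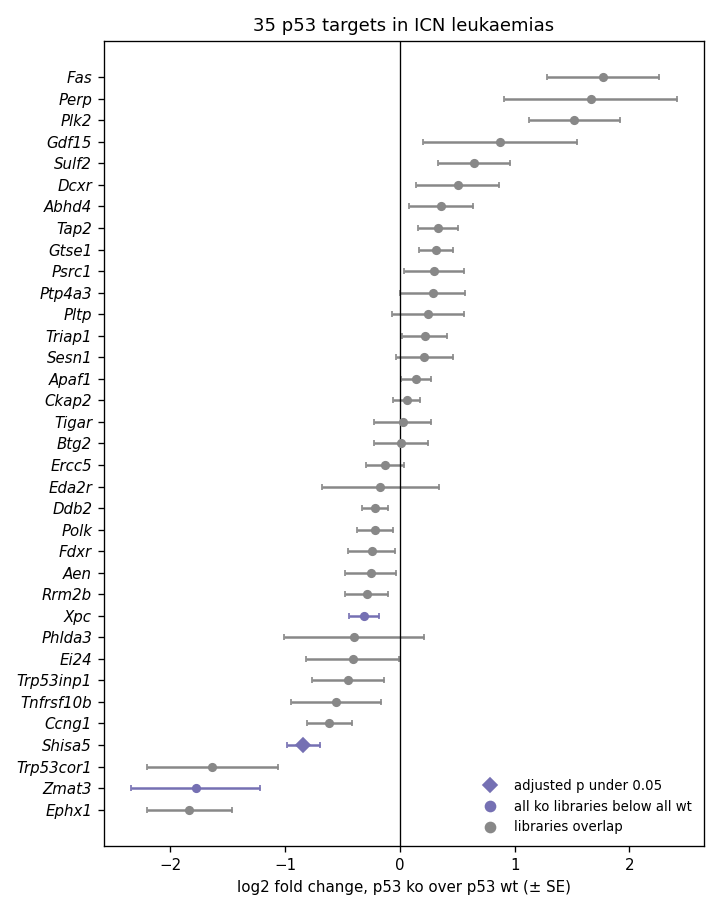
Log2 fold change of each of the 35 genes, 6 ICN p53-ko over 6 ICN p53-wt mice, with bars of 1 standard error from edgeR. Shisa5 (diamond, -0.84) is the single gene with an adjusted p under 0.05; purple points are genes in which all p53-ko libraries lay below all p53-wt libraries, and values run between -1.83 for Ephx1 and 1.77 for Fas.

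Among the death genes, Shisa5 (ENSMUSG00000025647, chromosome 9, 109038565 to 109057777 on GRCm38) encodes Scotin, a membrane protein of the endoplasmic reticulum and nuclear envelope that promotes caspase-dependent apoptosis. Its lowest, median and highest levels were 195, 239.6 and 348 CPM in p53-ko mice, against 358, 426 and 609.9 CPM in p53-wt mice. All 6 p53-ko mice lay below all 6 p53-wt mice. The gene fell 1.79-fold (log2 fold change -0.84, SE 0.14, edgeR adjusted p = 0.0478). The size held between -0.93 and -0.72 when 1 of the 16 libraries was left out, but the adjusted p stayed under the threshold in 4 of those 16 fits and reached 0.177. It passed without either Vav mouse that had no ICN, without ICN Miz1 wt p53-ko mouse 2 and without ICN Vav p53-ko mouse 1, and was lost without each of the other 12 libraries. With the 4 Lck libraries left out, a check chosen after seeing the data, it was -0.60 (SE 0.18, adjusted p = 0.966).

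Zmat3 (chromosome 3, 32334792 to 32366014) encodes a zinc finger protein that binds RNA and affects splicing and transcript stability. It had 3.86, 6.13 and 12.4 CPM (lowest, median, highest) in p53-ko mice, against 15.1, 22.0 and 33.9 CPM in p53-wt mice. The genotypes did not overlap, and the difference missed the threshold (log2 fold change -1.78, SE 0.56, edgeR adjusted p = 0.169). Ei24, an endoplasmic reticulum protein linked to autophagy, had 27.7 to 46.5 CPM in p53-ko mice, against 44.6 to 56.9 CPM in p53-wt mice, with 1 p53-ko library inside the p53-wt range. An antisense gene, Gm26787, overlaps Ei24, and whether the counting used strand is not known. Of the 12 death genes, 8 had a lower mean without p53, and the median log2 fold change was -0.33.

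The death receptor Fas and the membrane protein Perp had higher means without p53. Fas (chromosome 19, 34290666 to 34327772), which triggers apoptosis when bound by its ligand, had 1.65, 3.46 and 15.4 CPM in p53-ko mice, against 0.802, 1.43 and 4.89 CPM in p53-wt mice. Perp had 0.109, 0.864 and 1.71 CPM in p53-ko mice, against 0.0764, 0.161 and 0.621 CPM in p53-wt mice. In both genes the genotypes overlapped, and neither difference passed (log2 fold change 1.77, SE 0.49 and adjusted p = 0.138 for Fas by edgeR; 1.66, SE 0.75 and adjusted p = 0.316 for Perp). The highest Fas levels were those of 1 Miz1 wt mouse (15.4 CPM) and 1 deltaPOZ Lck mouse (11.9 CPM) of the p53-ko set, and the same mice had the highest Perp levels (1.71 and 1.17 CPM) and Plk2 levels (3.69 and 5.47 CPM) of the ICN leukaemias. The Miz1 wt mouse is mouse 1, whose library stood apart in its shares of counts, and its part in these levels was not tested. Without it, the log2 fold change was 0.98 (SE 0.35, edgeR adjusted p = 0.257) for Fas, 0.82 (SE 0.73, adjusted p = 0.632) for Perp and 1.24 (SE 0.39, adjusted p = 0.229) for Plk2. In deltaPOZ leukaemias taken alone, Fas lay higher in all 4 p53-ko mice than in all 4 p53-wt mice.

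Markers of myeloid cells also had higher means in ICN p53-ko mice. The summed level of 10 neutrophil markers had a lowest, median and highest value of 54.4, 2656 and 9128 CPM in ICN p53-ko mice, against 54.5, 219 and 901 CPM in ICN p53-wt mice. All 10 markers had a higher mean in p53-ko mice at an unadjusted p under 0.05, with a median log2 fold change of 3.09, and 0 passed the adjusted test. The summed level of 12 macrophage markers was 324 to 1677 CPM in p53-ko mice, against 197 to 433 CPM in p53-wt mice, with 8 of 12 higher at an unadjusted p under 0.05. The 2 p53-ko mice with the highest Fas (15.4 and 11.9 CPM) held 3751 and 6478 CPM of neutrophil markers, and the mouse with 9128 CPM of neutrophil markers had 4.12 CPM of Fas. Of 15 proliferation genes, 9 had a higher mean in p53-ko mice at an unadjusted p under 0.05 and 0 passed the adjusted test (summed 7380 to 9251 CPM, against 6582 to 8344 CPM in p53-wt mice). Of 15 interferon response genes, 6 did so and 0 passed (919 to 1926 CPM in p53-ko mice, against 919 to 1119 CPM in p53-wt mice). All 10 erythroid and all 12 T cell markers had an unadjusted p above 0.05, while 7 of 8 NK cell markers had a higher mean in p53-ko mice, 4 of them at an unadjusted p under 0.05, with a median log2 fold change of 0.95. The eighth NK cell marker, Klrb1c, fell (log2 fold change -2.69) and passed the adjusted edgeR test, the only marker of that list to do so. The summed NK levels were 98.7 to 450.2 CPM in p53-ko mice, against 160.4 to 535 CPM in p53-wt mice. Of 10 B cell markers, 9 had a lower mean in p53-ko mice, 1 of them at an unadjusted p under 0.05, with a median log2 fold change of -0.95 and sums of 20.7 to 401 CPM in p53-ko mice, against 57.9 to 296 CPM in p53-wt mice. The part of these cells and programmes in the levels of Fas, Perp and Plk2 was not tested.

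**Figure D2:**
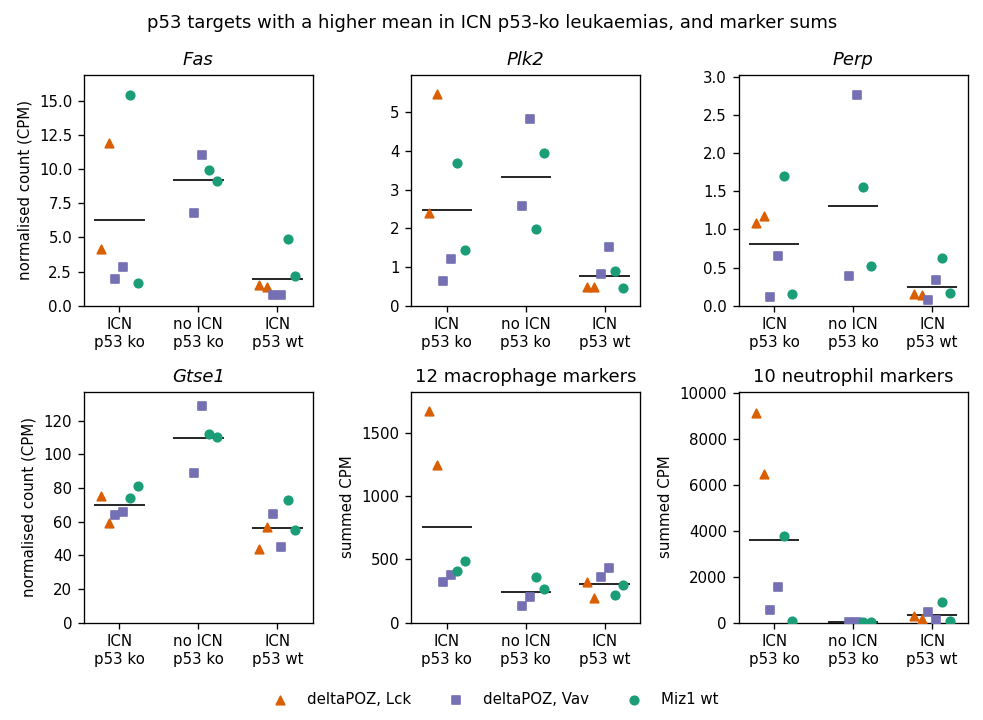
Normalised counts (CPM) of 4 genes with a higher mean in ICN p53-ko leukaemias, and summed CPM of 12 macrophage and 10 neutrophil markers, 1 point per mouse with the mean as a line; shape and colour give Miz1 status. Fas reaches 15.4 CPM in ICN p53-ko mice and 4.89 CPM in ICN p53-wt mice, and the genotypes overlap in all 4 genes.

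The other death genes did not pass the test, and their genotypes overlapped. Trp53inp1 had 423, 694 and 1753 CPM in p53-ko mice, against 789, 1184 and 1497 CPM in p53-wt mice, so that the highest and the lowest mouse of the ICN leukaemias both lacked p53. The highest was Miz1 wt mouse 1, without which the log2 fold change was -0.75 (SE 0.30, edgeR adjusted p = 0.292) in place of -0.45. Apaf1, the scaffold of the apoptosome, had 65.9 to 133 CPM in p53-ko mice, against 79.2 to 97.7 CPM in p53-wt mice. Aen, an apoptosis-enhancing nuclease, had 22.1 to 55.1 CPM in p53-ko mice, against 40.4 to 63.7 CPM in p53-wt mice. Triap1, a small mitochondrial protein that inhibits apoptosis, had 16.9 to 19.1 CPM in p53-ko mice and 13.7 to 17.0 CPM in p53-wt mice. The death receptors Tnfrsf10b (0.475 to 1.75 CPM in p53-ko mice, 0.898 to 2.6 CPM in p53-wt mice) and Eda2r (0.104 to 3.06 CPM and 0.203 to 1.28 CPM in the same order) and the AKT inhibitor Phlda3 (0.923 to 3.73 CPM in p53-ko mice, 1.29 to 5.25 CPM in p53-wt mice) were low in all ICN leukaemias.

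Among the cell cycle genes, Ccng1 (chromosome 11, 40748552 to 40755311) encodes cyclin G1, which recruits a phosphatase to Mdm2. It had 69.1, 90.3 and 115 CPM in p53-ko mice, against 113, 139.9 and 169 CPM in p53-wt mice. The ranges met only at their ends, and the difference did not pass (log2 fold change -0.62, SE 0.20, edgeR adjusted p = 0.176). Trp53cor1 had 0 to 9 counts a library in p53-ko mice, which gave 0, 0.0821 and 0.224 CPM (lowest, median, highest), against 7 to 20 counts and 0.128, 0.273 and 0.388 CPM in p53-wt mice. The genotypes overlapped, the difference did not pass (log2 fold change -1.63, SE 0.57, adjusted p = 0.204), and a pair of genes overlap it on the other strand. Plk2, a kinase of centriole duplication, had 0.637, 1.91 and 5.47 CPM in p53-ko mice, against 0.458, 0.659 and 1.52 CPM in p53-wt mice (log2 fold change 1.52, SE 0.40, adjusted p = 0.121).

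The other cell cycle genes had log2 fold changes of 0.01 to 0.31. Gtse1, a microtubule protein that restrains p53 after damage, had 59.0 to 81.4 CPM in p53-ko mice, against 43.8 to 72.7 CPM in p53-wt mice. Btg2 averaged 251.8 ± 36.4 CPM in p53-ko mice and 250.5 ± 83.2 CPM in p53-wt mice (SD, n = 6 each), and the spindle protein Ckap2 85.0 ± 9.02 CPM and 82.2 ± 11.6 CPM in the same order. The spindle regulator Psrc1 had 6.28 to 21.9 CPM in p53-ko mice, against 6.67 to 14.1 CPM in p53-wt mice. The phosphatase Ptp4a3 had 90.7 to 163 CPM in p53-ko mice, against 67.7 to 133 CPM in p53-wt mice. Of the 8 cell cycle genes, 6 had a higher mean without p53, with a median log2 fold change of 0.17.

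**Figure D3:**
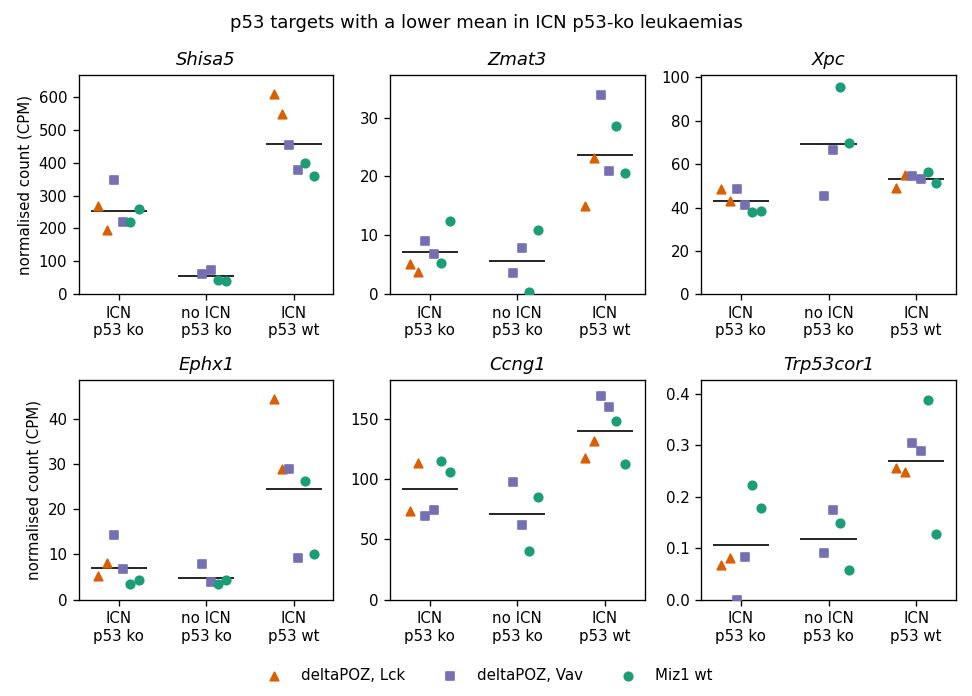
Normalised counts (CPM) of the 6 genes with a lower mean in ICN p53-ko leukaemias at an unadjusted p under 0.05, 1 point per mouse with the mean as a line; shape and colour give Miz1 status. In Shisa5, Zmat3 and Xpc the 6 ICN p53-ko mice lie below the 6 ICN p53-wt mice; p53-ko mice without ICN are drawn in the middle, at 40.7 to 72.9 CPM of Shisa5.

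All 5 repair genes had a lower mean without p53, by small amounts (median log2 fold change -0.22), and 0 of the 5 passed. Xpc (chromosome 6, 91489305 to 91515888), the damage sensor of global nucleotide excision repair, had 38.1, 42.0 and 48.6 CPM in p53-ko mice, against 49.2, 53.8 and 56.2 CPM in p53-wt mice. The genotypes did not overlap, by a margin between 48.6 and 49.2 CPM (log2 fold change -0.32, SE 0.13, edgeR adjusted p = 0.275). Ddb2, which recognises ultraviolet lesions, averaged 27.5 ± 3.99 CPM in p53-ko mice and 31.8 ± 2.60 CPM in p53-wt mice. Rrm2b, a ribonucleotide reductase subunit, averaged 15.5 ± 3.41 CPM in p53-ko mice and 18.9 ± 3.02 CPM in p53-wt mice. Polk averaged 16.7 ± 2.91 CPM and the excision nuclease Ercc5 26.4 ± 6.54 CPM in p53-ko mice, against 19.6 ± 3.04 CPM and 28.6 ± 3.31 CPM in p53-wt mice (SD, n = 6 each).

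Among the metabolic and other genes, Ephx1 (chromosome 1, 180976210 to 181020904) encodes microsomal epoxide hydrolase, which detoxifies reactive epoxides. It had 3.47, 6.02 and 14.3 CPM in p53-ko mice, against 9.16, 27.5 and 44.4 CPM in p53-wt mice. The genotypes overlapped through 1 deltaPOZ Vav p53-ko mouse at 14.3 CPM, which lay above the 2 lowest p53-wt mice. The difference was the widest of the 35 and did not pass (log2 fold change -1.83, SE 0.37, edgeR adjusted p = 0.0722). Gm36961 overlaps Ephx1 on the same strand, so some of its reads may have been set aside as ambiguous.

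In 8 of the 10 genes of that group the mean was higher without p53, with a median log2 fold change of 0.29, and 0 of the 10 passed. The stress cytokine Gdf15 had 0.0626 to 2.09 CPM in p53-ko mice, against 0.136 to 0.630 CPM in p53-wt mice, and the xylulose reductase Dcxr 0.898 to 3.18 CPM against 0.700 to 1.65 CPM in the same order. Tap2, which carries peptides to MHC class I, had 130.0 to 174 CPM in p53-ko mice, against 82.0 to 162 CPM in p53-wt mice. The heparan sulphatase Sulf2 had 0.337 to 1.84 CPM in p53-ko mice, against 0.330 to 1.47 CPM in p53-wt mice. Sesn1, an inhibitor of mTORC1, averaged 67.4 ± 16.3 CPM in p53-ko mice and 58.6 ± 14.9 CPM in p53-wt mice, and Tigar, which lowers glycolytic flux, 8.50 ± 1.71 CPM and 8.38 ± 1.10 CPM in the same order. Means in p53-ko and p53-wt mice were 22.7 ± 6.37 CPM and 17.6 ± 2.77 CPM for the lipid hydrolase Abhd4. They were 5.13 ± 2.45 CPM in p53-ko mice and 4.25 ± 1.85 CPM in p53-wt mice for the phospholipid carrier Pltp, and 22.3 ± 5.34 CPM in p53-ko mice and 26.4 ± 6.41 CPM in p53-wt mice for the mitochondrial reductase Fdxr (SD, n = 6 each).

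Of 16 further genes of the p53 pathway, Trp53 itself fell and the other 15 did not pass the test, against 0.195% of all genes that passed. Mdm2 and Cdkn1a are named here after their values were seen, because both are textbook p53 targets. Mdm2 averaged 113.9 ± 5.47 CPM in ICN p53-ko mice and 109.2 ± 8.48 CPM in ICN p53-wt mice (SD, n = 6 each; log2 fold change 0.06, SE 0.13, edgeR adjusted p = 0.861). Cdkn1a, the CDK inhibitor p21, had 0.436 to 9.01 CPM in ICN p53-ko mice, against 0.384 to 1.17 CPM in ICN p53-wt mice (log2 fold change 0.94, SE 0.59, adjusted p = 0.475). The genotypes overlapped in both genes.

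Within Miz1 wt leukaemias alone, 2 p53-ko mice were set against 2 p53-wt mice. There 0 of the 35 genes passed by edgeR, against 0.00572% of all genes, and 3 genes had an unadjusted p under 0.05 (8.57%, against 5.52% of all genes); DESeq2 also called 0 of the 35, against 0.85% of the genes it tested. Ephx1 had 3.47 and 4.37 CPM in p53-ko mice, against 26.2 and 10.1 CPM in p53-wt mice (log2 fold change -2.21, SE 0.65). Plk2 had 3.69 and 1.43 CPM in p53-ko mice, against 0.893 and 0.458 CPM in p53-wt mice (1.92, SE 0.69). Shisa5 (log2 fold change -0.66, SE 0.24) and Xpc (-0.50, SE 0.23) also lay lower in both p53-ko mice. The adjusted p-values of these 4 genes lay between 0.751 and 0.901. With 1 library left out, the log2 fold change of Plk2 ran from 1.08 (without p53-ko mouse 1) to 2.49 (without p53-wt mouse 1), and that of Ephx1 from -2.74 (without p53-wt mouse 2) to -1.35 (without p53-wt mouse 1). Over the 35 genes, 5 lay above in both p53-ko mice and 9 below, against 15.1% and 15.8% of all genes. Sulf2, at 1.06 and 0.337 CPM in p53-ko mice, against 0.349 and 0.330 CPM in p53-wt mice, overlapped and rested on p53-ko mouse 1, without which its log2 fold change was -0.01 in place of 1.03. All 10 B cell markers had a lower mean in p53-ko mice, 6 of them at an unadjusted p under 0.05, with summed levels of 31.9 and 20.7 CPM in p53-ko mice, against 271 and 57.9 CPM in p53-wt mice (median log2 fold change -2.46). All 12 macrophage markers had a higher mean, 5 of them at an unadjusted p under 0.05. None of either list passed by edgeR, and their part in the members' values was not tested.

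Within deltaPOZ leukaemias, 4 p53-ko mice were set against 4 p53-wt mice. Again 0 of the 35 genes passed by edgeR, against 0.0343% of all genes (0.0286% higher, 0.00572% lower), and 7 had an unadjusted p under 0.05 (20%, against 11.6% of all genes); DESeq2 called 3, Fas higher and Shisa5 and Ephx1 lower, against 3.27% of the genes it tested. Shisa5 had 269, 195, 348 and 220.3 CPM in p53-ko mice, against 609.9, 547, 453 and 377 CPM in p53-wt mice (log2 fold change -0.93, SE 0.17, edgeR adjusted p = 0.130), with no overlap. Ccng1 had 73.7, 113, 69.1 and 74.5 CPM in p53-ko mice, against 117, 132, 169 and 160.0 CPM in p53-wt mice (-0.81, SE 0.24), also with no overlap. Fas had 4.12, 11.9, 1.93 and 2.80 CPM in p53-ko mice, against 1.5, 1.35, 0.821 and 0.802 CPM in p53-wt mice (2.01, SE 0.60). For Trp53cor1 the log2 fold change was -2.27 (SE 0.72), with no overlap, and for Ephx1 -1.65 (SE 0.45), with overlap. Over the 35 genes, p53-ko mice lay above p53-wt mice without overlap in 3 (8.57%; Fas, Tap2, Triap1) and below in 6 (17.1%; Shisa5, Ccng1, Trp53cor1, Zmat3, Xpc, Ei24), against 4.42% and 5.84% of all genes. The log2 fold change of Trp53cor1, with its few counts, ran from -4.30 to -1.73 with 1 library left out. Neutrophil markers summed to 549 to 9128 CPM in p53-ko mice, against 112 to 444 CPM in p53-wt mice, all 10 higher at an unadjusted p under 0.05 and 0 passing by edgeR, and their part in these values was not tested.

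Whether the Miz1 POZ domain changed the effect of p53 loss was tested as the difference of these log2 fold changes, deltaPOZ minus Miz1 wt. By edgeR 0 of the 35 genes and 0 of all genes passed, and without adjustment p was under 0.05 for 0 of the 35 and for 2.6% of all genes. DESeq2 called 0 of the 35 and 29 of the genes it tested (0.196%). The smallest p-values belonged to Apaf1 (difference 0.51, SE 0.28), Pltp (-1.14, SE 0.67), Trp53cor1 (-1.91, SE 1.17), Eda2r (-1.64, SE 1.09) and Ccng1 (-0.57, SE 0.42). For Shisa5 the difference was -0.27 (SE 0.30).

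Deletion of the POZ domain itself was compared where p53 was present and where it was absent. In ICN p53-wt leukaemias, 4 deltaPOZ against 2 Miz1 wt mice, 0 of the 35 genes and 0 of all genes passed by edgeR. Without adjustment p was under 0.05 for 2 of the 35 (5.71%) and 1.87% of all genes, and DESeq2 called 0 of the 35, against 0.0859% of the genes it tested. Sulf2 had 0.927, 0.722, 0.936 and 1.47 CPM in deltaPOZ mice, against 0.349 and 0.330 CPM in Miz1 wt mice (log2 fold change 1.55, SE 0.51). Fas had 1.5, 1.35, 0.821 and 0.802 CPM in deltaPOZ mice, against 4.89 and 2.16 CPM in Miz1 wt mice (-1.71, SE 0.69, and from -2.18 to -1.01 with 1 library left out). In both genes the groups did not overlap. Ncoa3 overlaps Sulf2 on the other strand. Ckap2 had 72.1 to 80.1 CPM in deltaPOZ mice, against 102 and 89.6 CPM in Miz1 wt mice (-0.35, SE 0.17), and the differences of Shisa5 (0.37, SE 0.21) and Eda2r (-1.10, SE 0.74) came with overlap. Non-overlap was seen in 2 of the 35 above and 4 of the 35 below, against 5.45% and 5.95% of all genes.

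In ICN p53-ko leukaemias, 4 deltaPOZ against 2 Miz1 wt mice, 0 of the 35 genes passed by edgeR, against 0.00572% of all genes. Without adjustment p was under 0.05 for 1 (2.86%, against 3.78% of all genes), and DESeq2 called 0, against 0.715% of the genes it tested. That gene was Eda2r, a receptor of the TNF family for ectodysplasin A2, with 0.270, 1.05, 0.200 and 0.104 CPM in deltaPOZ mice, against 1.20 and 3.06 CPM in Miz1 wt mice (log2 fold change -2.73, SE 0.75, adjusted p = 0.780). Trp53cor1 was also lower without overlap (0 to 4 counts a library in deltaPOZ mice, 8 and 9 in Miz1 wt mice; -1.82, SE 0.85). Sulf2 had 1.62, 1.84, 1.07 and 1.09 CPM in deltaPOZ mice, against 1.06 and 0.337 CPM in Miz1 wt mice (0.97, SE 0.49), with 1.07 CPM as the lowest deltaPOZ and 1.06 CPM as the highest Miz1 wt value. With 1 library left out, this log2 fold change ran from 0.37 (without Miz1 wt mouse 2, at 0.337 CPM) to 2.01 (without Miz1 wt mouse 1). Ephx1 had 5.25 to 14.3 CPM in deltaPOZ mice, against 3.47 and 4.37 CPM in Miz1 wt mice (1.10, SE 0.57), and Apaf1, which overlapped, 87.7 to 133 CPM against 65.9 and 99.9 CPM in the same order (0.34, SE 0.20). Over the 35 genes, 3 lay above and 2 below without overlap, against 4.4% and 4.5% of all genes. With 1 library left out, the log2 fold change of Trp53cor1 ran from -3.88 to -1.31 and that of Apaf1 from 0.07 to 0.68. All 10 B cell markers had a higher mean in deltaPOZ mice, 7 of them at an unadjusted p under 0.05 and 0 by the adjusted edgeR test, with summed levels of 121 to 401 CPM in deltaPOZ mice, against 31.9 and 20.7 CPM in Miz1 wt mice (median log2 fold change 3.39). Their part in the members' values was not tested.

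**Figure D4:**
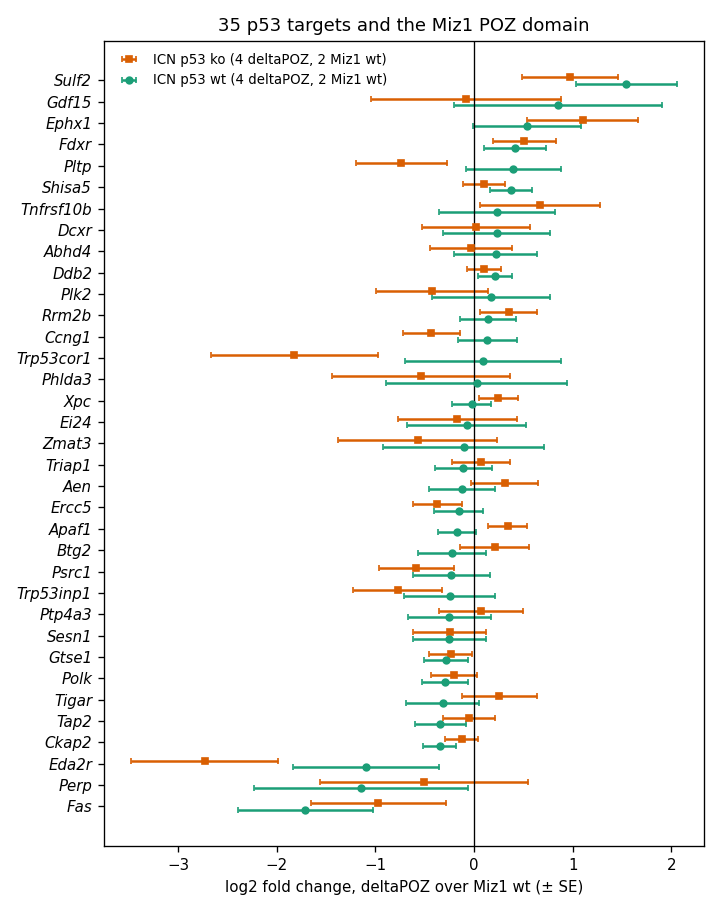
Log2 fold change of each of the 35 genes, 4 deltaPOZ over 2 Miz1 wt mice, in ICN p53-ko (squares) and ICN p53-wt (circles) leukaemias, with bars of 1 standard error from edgeR. No gene passed the adjusted test in either background; Sulf2 is at 0.97 and 1.55 and Eda2r at -2.73 and -1.10 in that order of backgrounds.

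Where p53 and ICN were both lacking, 2 mice with deltaPOZ Vav were set against 2 with Miz1 wt, and 0 of the 35 genes and 0 of all genes passed by edgeR. Without adjustment p was under 0.05 for 4 of the 35 (11.4%) and 7.68% of all genes, and DESeq2 called 1, Psrc1, against 1.45% of the genes it tested. Psrc1 had 6.78 and 4.43 CPM in deltaPOZ mice, against 1.28 and 1.82 CPM in Miz1 wt mice (log2 fold change 1.85, SE 0.47, edgeR adjusted p = 0.331). Ei24 had 66.8 and 38.9 CPM in deltaPOZ mice, against 1.75 and 18.5 CPM in Miz1 wt mice (2.38, SE 0.74). Shisa5 had 62.0 and 72.9 CPM in deltaPOZ mice, against 42.4 and 40.7 CPM in Miz1 wt mice (0.70, SE 0.25). Xpc had 45.5 and 66.3 CPM in deltaPOZ mice, against 95.4 and 69.9 CPM in Miz1 wt mice (-0.56, SE 0.23), and Dcxr 0.618 and 2.5 CPM against 0.525 and 0.789 CPM in the same order (1.24, SE 0.63). The groups did not overlap in the first 4 of these. Over the 35 genes, 4 lay above and 3 below without overlap, against 12.8% and 13.2% of all genes. Without Miz1 wt mouse 2, the log2 fold change of Ei24 was 4.91 with an adjusted p of 0.0049, which rests on the library with 1.75 CPM.

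Lck and Vav deltaPOZ leukaemias, 4 mice each over both p53 genotypes, differed in 0 of the 35 genes and 0 of all genes by edgeR. Without adjustment p was under 0.05 for 0 of the 35 and 3.15% of all genes, and DESeq2 called 15 of all genes (0.0859%) and 0 of the 35. The smallest p-values were those of Fas (log2 fold change 1.29, SE 0.59), Psrc1 (0.67, SE 0.32), Eda2r (1.28, SE 0.65), Pltp (0.67, SE 0.39) and Tnfrsf10b (-0.82, SE 0.48), all with overlap between Lck and Vav mice.

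Leukaemias with and without ICN differed in more of these genes. Among p53-ko leukaemias, where p53 was missing on both sides, 10 of the 35 genes (28.6%) passed between 4 ICN mice (2 Miz1 wt, 2 deltaPOZ Vav) and 4 mice without ICN (2 Miz1 wt, 2 deltaPOZ Vav). Of all genes, 24% passed, 12.9% higher and 11.1% lower in ICN mice, so the share among the 35 is near that of all genes. Fitted on the compared groups alone, 4 of the 10 passed (Psrc1, Eda2r, Shisa5, Tap2), against 13.5% of all genes. With 1 library left out, 5 to 11 of the 35 passed, 5 without either ICN Vav p53-ko mouse and 6 without Vav mouse 2 that had no ICN. DESeq2 called 12 of the 35, against 30.5% of all genes. The 4 that rose were Shisa5, Eda2r, Psrc1 and Ckap2, and the 6 that fell were Tap2, Xpc, Tnfrsf10b, Rrm2b, Gtse1 and Sulf2. The median log2 fold change of the 35, ICN over no ICN, was -0.09, against -0.02 over all genes.

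Shisa5 had 221, 258, 348 and 220.3 CPM in ICN p53-ko mice, against 42.4, 40.7, 62.0 and 72.9 CPM in p53-ko mice without ICN. The sets did not overlap, and Shisa5 rose 4.93-fold (log2 fold change 2.30, SE 0.18, edgeR adjusted p = 1.77e-05). Eda2r had 1.20, 3.06, 0.200 and 0.104 CPM in ICN mice, against 0, 0, 0 and 0.0174 CPM without ICN, which is 213 counts over 4 libraries against 1 count over 4. The ratio of the depth-scaled sums was 238, with a 95% interval from counting error alone of 42.2 to 9431. Of the 213 counts, 154 came from ICN Miz1 wt mouse 2, and the ICN Vav mice held 11 and 5. The edgeR estimate is a different one, a log2 fold change of 6.72 (edgeR adjusted p = 0.0016). In Miz1 wt mice Psrc1 had 10.7 and 21.9 CPM with ICN, against 1.28 and 1.82 CPM without ICN. In Vav mice it had 6.29 and 6.28 CPM with ICN, against 6.78 and 4.43 CPM without ICN, with overlap. Averaged over both, the log2 fold change was 1.78 (SE 0.33, edgeR adjusted p = 0.0035). Ckap2 had 102, 77.7, 82.8 and 79.8 CPM in ICN mice, against 63.4, 47.0, 72.6 and 65.3 CPM without ICN, without overlap (0.47, SE 0.14, adjusted p = 0.0317).

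Of the genes that fell, Tap2 (chromosome 17, 34203527 to 34216321) had 163, 139.7, 130.1 and 130.0 CPM in ICN mice, against 269, 412, 184 and 302 CPM without ICN (log2 fold change -1.04, SE 0.22, edgeR adjusted p = 0.0062). Tnfrsf10b, a receptor for the death ligand TRAIL, had 0.475, 0.933, 1.58 and 1.75 CPM in ICN mice, against 6.58, 1.94, 2.75 and 5.49 CPM without ICN (-1.94, SE 0.49, adjusted p = 0.0160). In both genes the sets did not overlap. Over the 35 genes, 3 lay above and 6 below without overlap, against 12.1% and 9.56% of all genes. Gm15821 and Gm20496 overlap Tap2 on the other strand, and Gm49085 overlaps Rrm2b in the same way. Rrm2b had 13.5, 12.7, 14.8 and 17.7 CPM in ICN mice, against 31.1, 23.4, 32.9 and 21.5 CPM without ICN (-0.90, SE 0.23, adjusted p = 0.0179). Gtse1 had 74.0, 81.4, 63.7 and 65.5 CPM in ICN mice, against 112, 110.1, 88.7 and 129 CPM without ICN (-0.63, SE 0.18, adjusted p = 0.0274). Rrm2b and Gtse1 also showed no overlap.

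Sulf2 had 1.06, 0.337, 1.07 and 1.09 CPM in ICN mice, against 2.30, 3.23, 1.37 and 1.84 CPM without ICN (log2 fold change -1.28, SE 0.38, edgeR adjusted p = 0.0330), without overlap. Xpc had 38.1, 38.2, 48.4 and 41.2 CPM in ICN mice, against 95.4, 69.9, 45.5 and 66.3 CPM without ICN (-0.72, SE 0.16, adjusted p = 0.0088), with 1 Vav mouse without ICN inside the ICN range. All 5 repair genes had a lower mean in ICN mice, and 2 of the 5, Xpc and Rrm2b, passed. Of the 35 genes, Shisa5 was called in both the p53 and the ICN comparison, and it stood lowest in p53-ko mice without ICN, in between in ICN p53-ko mice and highest in ICN p53-wt mice. These comparisons share the ICN p53-ko libraries of Miz1 wt and Vav mice. Between p53-ko mice without ICN and ICN p53-wt mice both factors differ, and no test was made.

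Other cells moved with ICN as well. All 10 erythroid and all 10 neutrophil markers rose in ICN p53-ko mice by edgeR, against p53-ko mice without ICN. Erythroid markers summed to 2343 to 7162 CPM in the 4 ICN mice, against 5.25 to 9.97 CPM without ICN, and neutrophil markers to 54.4 to 3751 CPM, against 1.99 to 3.02 CPM without ICN. Of 10 B cell markers 8 rose (20.7 to 401 CPM, against 10.9 to 29.9 CPM without ICN), and of 8 NK cell markers 5 rose (98.7 to 369.9 CPM, against 159.7 to 428 CPM without ICN), while the summed NK levels overlapped. In mice without ICN, 6 of the 10 neutrophil markers and 5 of the 10 erythroid markers had 0 counts in at least 1 library, among them the defining neutrophil marker Ly6g. T cell markers summed to 3227 to 4550 CPM in ICN mice, against 3022 to 5913 CPM without ICN, with 2 of 12 higher and 2 of 12 lower. Macrophage markers summed to 324 to 487 CPM in ICN mice, against 134 to 364 CPM without ICN, with 4 of 12 higher. Of 10 endothelial and stromal markers 3 rose and 2 fell, and of 15 proliferation genes 1 rose. Of 15 interferon response genes 7 rose and 1 fell (919 to 1926 CPM in ICN mice, against 632 to 1176 CPM without ICN). The part of these cells in the changes of the 10 genes was not tested.

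**Figure D5:**
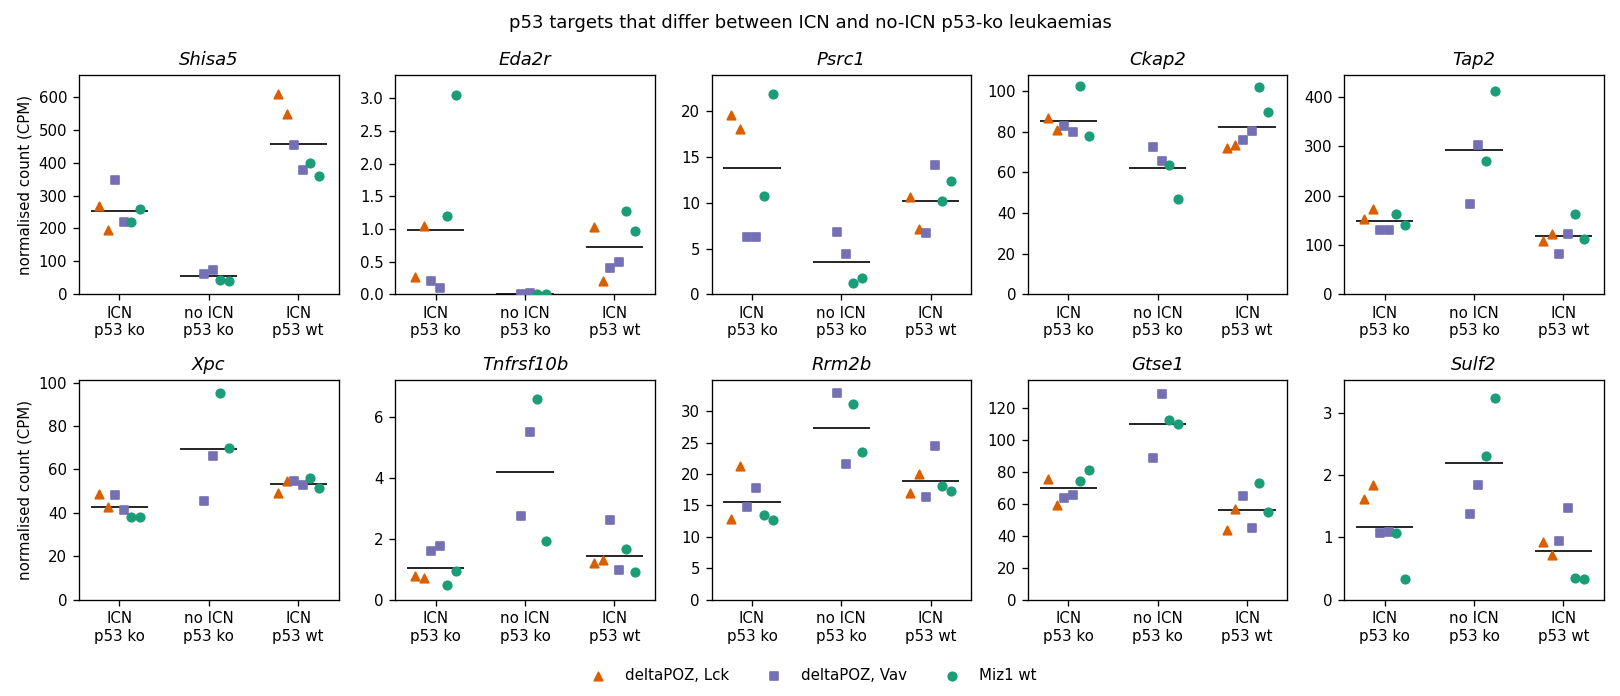
Normalised counts (CPM) of the 10 genes that passed between ICN and no-ICN p53-ko leukaemias, 1 point per mouse with the mean as a line; shape and colour give Miz1 status. The deltaPOZ Lck mice and the ICN p53-wt set are drawn for reference and took no part in that comparison; Shisa5 reaches 72.9 CPM in mice without ICN and is at 195 CPM or more in ICN p53-ko mice.

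Between ICN p53-ko mice and p53-ko mice without ICN, 12.9% of all genes were higher with ICN and 11.1% lower. Of the 16 further p53 pathway genes, 3 rose and 0 fell in that comparison. They are Pmaip1 (4.45 to 24.9 CPM in ICN mice, against 0.549 to 1.61 CPM without ICN; log2 fold change 3.56, SE 0.45), Bbc3 (5.43 to 21.9 CPM, against 1.69 to 5.15 CPM; 1.60, SE 0.42) and Steap3 (7.35 to 24.3 CPM, against 2.04 to 8.22 CPM; 1.72, SE 0.50). Pmaip1 and Bbc3 encode the BH3-only death proteins Noxa and Puma, and Steap3 a ferrireductase of iron uptake in red cell precursors. In Pmaip1 and Bbc3 the sets did not overlap, and in Steap3 they did.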

How the data were processed

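Libraries were made with a stranded TruSeq mRNA kit from leukaemia RNA, per the labels' protocols. The submitters' processing notes name TopHat2 2.0.10, SAMtools, HTSeq and DESeq with mm10 and GRCm38, without roles. The deposited values are raw counts per gene, 1 file a library. The 5 HTSeq summary rows were left out. Of a file's total over gene and summary rows, 45.8% to 63.7% stood under no unique position. No feature held 14.2% to 21.5% of that total, and genes 20.6% to 39.6%. These are shares of counted alignments, in which a read with several positions can enter more than once. The sources used here name neither the annotation release nor the strand setting. Genes on the other strand also overlap Ddb2 (Acp2), Pltp (Ctsa) and Tigar (Platr31). Symbols came from GENCODE M21, which holds 40340 of the identifiers. Counts were scaled by TMM and tested with edgeR 4.0.16 in R 4.3.3 (quasi-likelihood F test, filterByExpr, 8 groups in 1 fit, 8 residual degrees of freedom, Benjamini-Hochberg adjustment over 17470 genes). DESeq2 1.42.0 was an alternative. The edgeR procedure was also run on simulated counts with set changes in the p53 comparison and otherwise equal means in all groups. Those counts do not model the differences in cell markers or the library that stood apart. A standard error was taken as the log2 fold change over the square root of F. All 35 members are accounted for: values are given for those that passed in a comparison and, where none passed, for the 5 smallest p-values. Members and gene lists were chosen with earlier results of these data known. The p53 decamer was searched by its consensus in RefSeq promoter windows.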

Additional observations from a re-analysis of the deposited data

Results flagged for a closer look

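Each of the 35 genes was examined in 3 sets of mice (6 ICN p53-ko, 4 p53-ko without ICN, 6 ICN p53-wt) for a single library far from the others of its set by Dixon's criterion. The criterion was applied to log2 CPM. Of 105 sets, 9 (8.57%) held such a library. Its chance rate of about 1 in 20 holds for normal values from a single population. These sets pool Miz1 groups, so an excess over chance cannot be read from this share.

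In ICN p53-ko mice, Fdxr was lowest at 12.5 CPM in Miz1 wt mouse 1 (21.8 to 28.3 CPM in the others), Sulf2 lowest at 0.337 CPM in Miz1 wt mouse 2 (1.06 to 1.84 CPM) and Triap1 highest at 19.1 CPM in deltaPOZ Vav mouse 2 (16.9 to 17.6 CPM). In p53-ko mice without ICN, Phlda3 was lowest at 0.0916 CPM in deltaPOZ Vav mouse 1 (2.65 to 3.98 CPM in the others). Polk was lowest at 14.3 CPM in deltaPOZ Vav mouse 2 (18.7 to 19.4 CPM), Ercc5 lowest at 19.1 CPM in Miz1 wt mouse 2 (28.9 to 30.9 CPM), and Eda2r highest at 0.0174 CPM, a single count, in deltaPOZ Vav mouse 2 (0 in the others). With the others at 0, any count in that Eda2r set meets the criterion. In ICN p53-wt mice, Sesn1 was lowest at 31.1 CPM in deltaPOZ Vav mouse 1 (55.8 to 74.4 CPM in the others) and Pltp highest at 7.99 CPM in deltaPOZ Lck mouse 1 (3.22 to 3.89 CPM). None of the 9 is a gene that passed in the p53 comparison. Sulf2 and Eda2r passed in the comparison of ICN with no ICN, and their flagged libraries took part in it.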

How the results depend on the processing

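With 2 mice a group, the counts of genes past the threshold moved with the settings. The share of all genes tested that passed at the same setting stands in brackets. Of the 35 genes, the comparison of p53 ko with p53 wt called 1 as reported (0.195%), 0 with RLE size factors (0.166%), 7 with no filter on low counts (5.28%), 2 when fitted on the compared groups alone (0.784%), 5 by DESeq2 (6.73%), and 0 without the 4 Lck libraries (0.0114%), a setting chosen after seeing the data. Leaving out 1 library at a time gave 0 to 2 (0.0114% to 1.16%). Within Miz1 wt mice no filter gave 1 (Ephx1; 2%). Within deltaPOZ mice no filter gave 5 (3.68%), the compared groups alone 1 (0.521%) and DESeq2 3 (3.27%). For deltaPOZ against Miz1 wt, no filter gave 1 in ICN p53-ko mice (Eda2r; 1.54%) and 1 without ICN (Ei24; 2.48%), where DESeq2 also gave 1 (Psrc1; 1.45%) and leaving out 1 library gave 0 to 1 (0% to 0.664%).

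ICN against no ICN called 4 on the compared groups alone (Psrc1, Eda2r, Shisa5, Tap2; 13.5%) and 5 to 11 with 1 library left out (14.9% to 27.2%): 5 without either ICN Vav p53-ko mouse, and 6 without Vav mouse 2 that had no ICN. Psrc1, Eda2r, Shisa5, Xpc and Tap2 passed in all 16 of those fits, and Gtse1 in 9, Ckap2, Tnfrsf10b and Sulf2 in 11 and Rrm2b in 12. The sign turned in 2 genes: the p53 log2 fold change of Sulf2 within Miz1 wt mice ran between -0.0088 and 1.66 with 1 library left out, and the deltaPOZ log2 fold change of Dcxr without ICN between -0.0749 and 1.92. The causes were not tested. Fits that left out a library kept the 17470 genes, also chosen after seeing the data. No paired analysis was made, because the libraries come from separate mice and the labels link no mice across groups. A gene with 0 to 9 counts a library, such as Trp53cor1, cannot show small changes at this depth.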

Other observations

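Ei24 was examined with its neighbours on chromosome 9 after its low value had been seen. In the p53-ko mouse 1 of the Miz1 wt group without ICN, Ei24 had 1.75 CPM from 70 counts, against 18.5 to 66.8 CPM in the other 15 libraries. In the same library the nearby genes lay within the range of the other libraries: Chek1, a checkpoint kinase, had 64.2 CPM (53.7 to 106 CPM elsewhere), Stt3a, a glycosylation enzyme, 214 CPM (172 to 238 CPM elsewhere) and Pknox2, a homeobox gene, 0.0250 CPM (0 to 0.473 CPM elsewhere).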
